A study of Sus scrofa with 24 samples.

Results

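Brain cells exchange cholesterol and other lipids through lipoprotein particles that are made inside the brain. The transcripts described here come from 9 genes of that traffic, named by symbol and not by a threshold on their values: the apolipoproteins APOE, APOD and CLU, the efflux transporters ABCA1 and ABCG1, the uptake receptor LRP1, the lipase LPL, and CYP46A1 and SOAT1, which turn sterols over inside cells. Of these 9 genes, 7 were matched by Entrez gene identifier to the 38882 genes listed in the count files, and all 7 were among the 16326 genes that passed the filter on low counts. LPL and CYP46A1 are not analysed here.

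The samples were hippocampi of 24 neonatal piglets (PIC Camborough dam by PIC 359 sire) taken at 14 days of age, 1 RNA library per piglet. Piglets were small (SGA) or appropriate (AGA) for gestational age by birth weight and received a control (CON) or a hydrolyzed fat (HF) formula, which gave 4 groups of 6: AGA CON, SGA CON, AGA HF and SGA HF. In the CON formula the fat was triglyceride oil with no added cholesterol, whereas the HF formula carried soy free fatty acids, monoacylglycerol palmitate, lecithin and added cholesterol. Each of 12 litters gave 1 AGA and 1 SGA piglet, matched for sex and fed alike, with 6 litters per diet and 3 of those per cohort, so size was compared within litters and diet between litters. All piglets, controls included, received iron dextran and an antibiotic at the farm and stayed with the sow for colostrum before they were moved to individual cages.

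Astrocytes supply most of the brain's lipoproteins. They load cholesterol and phospholipid onto APOE through the ABC transporters ABCA1 and ABCG1, and neurons and other cells take the particles up through receptors such as LRP1. CLU (clusterin, also called apolipoprotein J) travels on similar particles, and APOD is a lipocalin that binds small lipids such as arachidonic acid and is made mainly by oligodendrocytes and astrocytes in the brain. SOAT1 esterifies cholesterol for storage in droplets. Myelin holds a large share of the brain's cholesterol, and the second postnatal week in the pig is a time of active myelination.

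Between 6017336 and 9284355 reads per library were assigned to genes, with a median of 7346072. Ranges by group were 6204809 to 8723343 in AGA CON, 6017336 to 9217875 in SGA CON, 6224421 to 7474872 in AGA HF and 6931595 to 9284355 in SGA HF. A count of 3 reads corresponded to 0.323 to 0.499 CPM, the read count relative to the library's total. Hippocampal neuron markers were present in every library, with a summed level of 512 to 933 CPM led by NEUROD2, a transcription factor of hippocampal excitatory neurons. Markers of neighbouring tissue were uneven. The choroid plexus sum ranged from 11.5 to 158 CPM. In the highest library, SGA CON replicate 1, transthyretin (TTR) made up 146 CPM of it, and in the lowest, SGA CON replicate 5, 4.36 CPM. One library, SGA HF replicate 4, held 2574 reads of the growth hormone gene GH1 against at most 39 in any other, whereas the pituitary genes TSHB, FSHB and POU1F1 were at 0 in all libraries. Results for the 7 genes that rest on that library are given with and without it.

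Per length, the apolipoproteins stood far above the other genes. Levels here are CPM scaled by trimmed mean of M-values (TMM) and divided by the exon length in the count files. CLU had a mean of 3785 CPM per kb over the 24 libraries and ranked 3 of 16326 tested genes, and APOE had 3526 CPM per kb and ranked 5. APOD followed at 180.5 CPM per kb, rank 509. The 4 other genes were low: LRP1 at 2.31 CPM per kb (rank 10881), ABCA1 at 2.16 (rank 11103), SOAT1 at 1.34 (rank 12459) and ABCG1 at 0.390 (rank 15237). CLU and APOE differed by less than the spread between libraries, as did LRP1 and ABCA1. The gene models of ABCA1 and LRP1 in this build hold fewer exons than the human genes are known to have, so their levels per length are uncertain. The paper gives an average RNA quality number for these samples that it ascribes to pre-spliced RNA. Levels per length were not corrected for RNA quality, and its part in them was not tested.

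**Figure D1:**
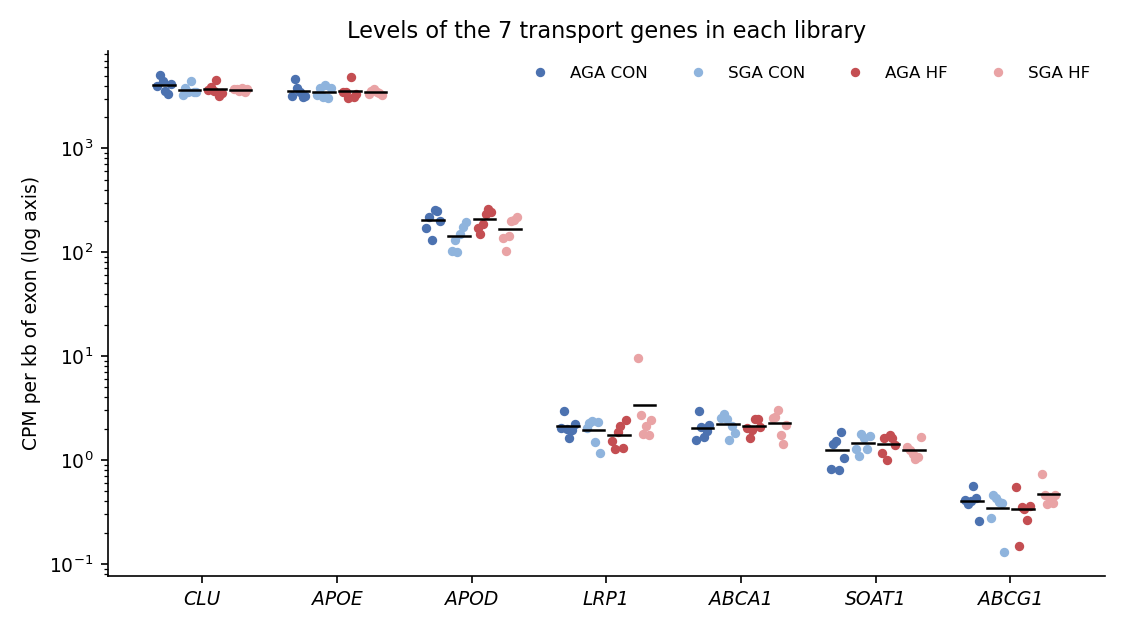
Level of each of the 7 genes in every library, in CPM per kb of exon on a log axis; points are libraries, colours are the 4 groups of 6 and black bars are group means. CLU and APOE average 3785 and 3526 CPM per kb and ABCG1 lies lowest at 0.390, while the 4 groups overlap for every gene.

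Depth set how finely each gene could be read. APOE had 20629 to 40290 reads per library and CLU had 30752 to 55536, for which counting alone gives a coefficient of variation of 0.588% and 0.470%. APOD had 1612 to 4637 reads and a counting variation of 1.84%, against an observed variation of 27.7% between libraries. By contrast, ABCG1 had only 7 to 47 reads and SOAT1 20 to 53, and counting alone gives 19.7% and 17.3% of the 32.4% and 23.3% observed. ABCA1 had 62 to 142 reads and LRP1 37 to 367, with counting variations of 10.1% and 10.6%.

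Differences were tested with edgeR's quasi-likelihood test on all 16326 genes, in a model with the 4 groups, sex and 5 surrogate variables, and 7 contrasts adjusted together by the false discovery rate (FDR). A gene was called at an adjusted p under 0.4, the lenient threshold the study used for its heat map. None of the 7 genes was called in any of the 7 contrasts, beside 0.478% of all genes for size and 0.159% for diet. None had an adjusted p under 0.05 either, and limma voom and DESeq2 with the same terms also called 0 of 7 in every contrast. For the interaction of size and diet, 0.049% of all genes were called, and for the pairwise contrasts 0.129% for size on CON, 0.288% for size on HF, 0.0674% for diet in AGA and 0.0919% for diet in SGA. At an unadjusted p under 0.05, 1 of 7 passed for size, for size on CON and for size on HF (APOD each time), against 10.6%, 6.59% and 8.02% of all genes. None of the 7 passed for diet (7.09% of all genes), the interaction (4.01%), diet in AGA (6.09%) or diet in SGA (5.16%). The ranges of the 4 groups overlapped for all 7 genes, whereas 0.368% of all genes did not overlap between SGA and AGA on CON, 0.374% on HF, and 0.135% and 0.165% between the diets in AGA and in SGA. Since the pairs came from the same litters, the size contrast was also fitted with a block term for litter, which replaced the terms for sex and the surrogate variables. The block fit was adjusted over its own 4 contrasts (size, size on each diet and the interaction), not over 7. That fit called 2.57% of all genes, 1.52% as lower in SGA, and among the 7 genes it called APOD, also as lower.

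APOD was lower in the SGA piglet than in its AGA littermate in all 12 litters. APOD (gene 100157318) lies on chromosome 13 of Sscrofa10.2 from 142076180 to 142096088 on the plus strand, with 5 exon blocks that sum to 2185 bases. On CON, the AGA and SGA littermates of replicates 1, 2 and 3 had 369.7 and 224.3, 477 and 288, and 288 and 218 CPM. Those of CON replicates 4, 5 and 6 had 559 and 330, 542 and 385, and 431 and 427 CPM. The last CON litter was almost level, with a log2 difference of -0.00090 in the values used for the litter tests. Those log2 values do not follow exactly from the CPM printed here, which lie slightly further apart in that litter. On HF, replicates 1, 2 and 3 had 370.1 and 298, 326 and 222, and 408 and 312 CPM in AGA and SGA. HF replicates 4, 5 and 6 had 514 and 438, 572 and 450, and 535 and 479 CPM. The ranges of the groups overlapped on both diets, while every pair pointed the same way. In each of the 4 groups the median was higher in cohort 2 than in cohort 1.

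**Figure D2:**
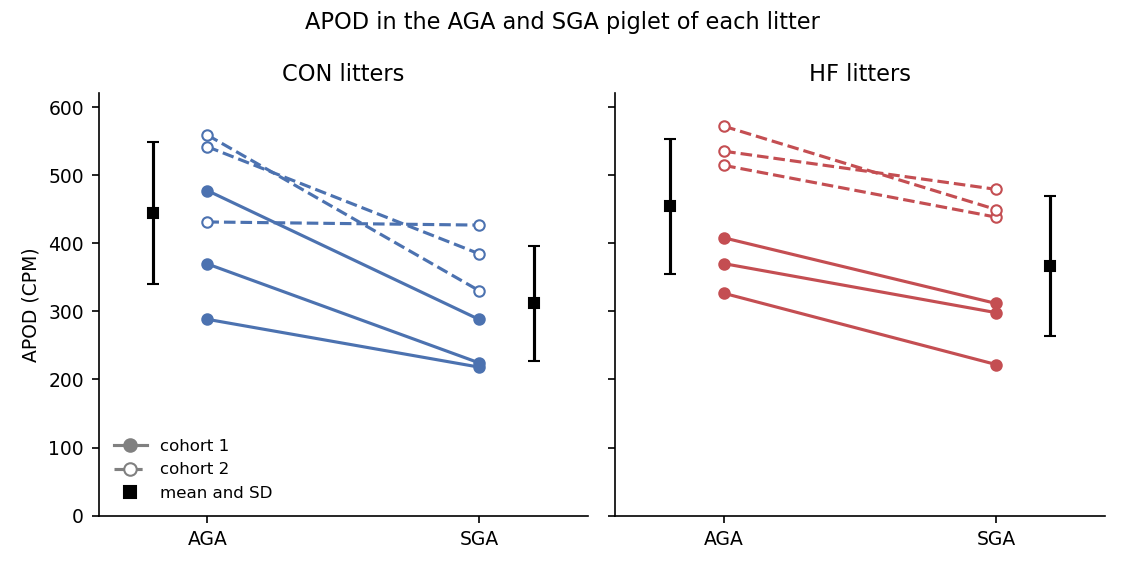
APOD in CPM in the AGA and the SGA piglet of each litter, with CON litters on the left and HF litters on the right; lines join littermates, filled points and solid lines are cohort 1, open points and dashed lines cohort 2, and squares with bars are group means ± SD (n = 6). All 12 lines run downward, from 431 to 427 CPM in the flattest CON litter.

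In order, the group means were 454 ± 99.5 CPM in AGA HF, 445 ± 104 in AGA CON, 367 ± 103 in SGA HF and 312 ± 84.7 in SGA CON (SD, n = 6). Neighbours in this order differed by less than the larger SD, and without the pairing the ranges overlapped. Within litters the mean log2 difference, SGA minus AGA, was -0.44 ± 0.23 (SD, n = 12), a level 26.0% lower in SGA. The exact sign-flip permutation test over the 12 litters gave p = 0.000488, two-sided, which is the smallest it can give, and 0.104 after Benjamini-Hochberg adjustment over all genes. In that test 12.6% of all genes had p under 0.05. Genes lower in SGA in all 12 litters numbered 49, or 0.3% of those tested, and 185 of 16326 genes had a mean difference as low as that of APOD or lower.

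The APOD difference had the same direction on both diets and in both cohorts. On CON it was -0.53 ± 0.29 and on HF -0.35 ± 0.12 (SD, n = 6 litters each), each with an exact permutation p of 0.03125, the smallest that 6 litters allow. All 6 litters ran one way in 4.66% of genes on CON and 5.03% on HF. The difference between the diets, 0.18 on the log2 scale, was not larger than the spread between litters (exact permutation p = 0.188, adjusted 0.989). In cohort 1 the mean was -0.53 ± 0.18 and in cohort 2 -0.34 ± 0.26 (SD, n = 6 litters each). Within each of the 4 sets of 3 litters that share diet and cohort, every SGA piglet had less APOD than every AGA piglet, though on CON in cohort 1 the highest SGA value, 288.1 CPM, lay just under the lowest AGA value, 288.4 CPM. Among all genes 3, or 0.0184%, had this pattern, the others being SH3GL3, an endophilin, and CDK4, a cell cycle kinase, both named after their values were seen. The pattern was taken from the values of APOD and was not a planned comparison, so that share is not a test of APOD.

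Whether APOD passed a test across all genes differed between models. With sex and surrogate variables, the log2 fold change for size was -0.34 (SE 0.101), with an unadjusted p of 0.00271 and an adjusted p of 0.485 in edgeR. It was called, at an adjusted p as low as 0.142, when any 1 of 4 litters was left out (CON replicate 2 or 6, HF replicate 2 or 3), and in none of the other 8. Those 4 fits called 1.31% to 7.86% of all genes, and the other 8 called 0.116% to 2.25%. APOD was also called for size with sex and cohort in place of surrogate variables (adjusted p = 0.223, beside 0.649% of all genes), on CON in that fit (adjusted p = 0.273, beside 0.263%), and for size with adjustment within the contrast alone (adjusted p = 0.209, beside 7.35%). With litter as a block it was -0.44 (SE 0.063) with an adjusted p of 0.0366. Adjustment in the block fit ran over its own 4 contrasts and not over 7, so its adjusted p-values are not on the same footing as the 0.485 above. Only 4 genes, 0.0245% of those tested, were under an adjusted p of 0.05 in that fit: APOD, the myelin enzyme CNP, and 2 genes without a symbol, 100156401 (lower in SGA) and 100517438 (higher). With any 1 litter left out of the block fit APOD was still called at 0.4, with adjusted p-values from 0.00202 to 0.112, but stayed under 0.05 in only 2 of 12 cases. Within diets, the log2 fold change was -0.39 on CON (adjusted p = 0.588) and -0.29 on HF (adjusted p = 0.725), and with the block -0.53 (adjusted p = 0.0593) and -0.34 (adjusted p = 0.252). In the block fits 1.26% of all genes were called for size on CON and 0.888% on HF. Without SGA HF replicate 4 the value for size was -0.35 (adjusted p = 0.561).

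Oligodendrocyte transcripts were, like APOD, lower in SGA piglets on average. The 10 oligodendrocyte markers summed to 12162 to 26638 CPM per library with a median of 19292, led by myelin basic protein (MBP) at 6590 CPM, and none was at 0. On CON the sum averaged 22033 ± 2626 CPM in AGA and 16750 ± 2359 in SGA piglets, and on HF 21838 ± 4591 and 18793 ± 3973 (SD, n = 6). It was lower in the SGA piglet in 11 of 12 litters, with a mean log2 difference of -0.31 ± 0.28 (SD). In the model with surrogate variables all 10 markers had negative values for size, with a median of -0.20 beside -0.002 for all genes. Of the 10, 0 were called (0.478% of all genes) and 3 had an unadjusted p under 0.05 (10.6% of all genes). With the block, 5 of 10 were called, all lower, beside 1.52% of all genes called lower. They were MBP, MOBP, CNP and OPALIN of the myelin sheath and its maturing cells, and UGT8, which makes myelin galactolipids. In bulk tissue, fewer cells of a type and less RNA per cell cannot be told apart.

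The match between APOD and these markers was loose from litter to litter. In HF replicate 1 the oligodendrocyte sum was higher in the SGA piglet by 0.30 while APOD was lower by a log2 difference of -0.31. In CON replicate 6 the sum differed by -0.49, while APOD was almost level, at 431 CPM in the AGA and 427 in the SGA piglet. Marker differences were taken from the log2 of the CPM sums. Those of APOD came from the log2 values of the litter tests, -0.00090 in that litter, so the scaling is not quite the same. Relative to the oligodendrocyte sum, APOD was lower in SGA in 8 of 12 litters, with a mean log2 difference of the ratio of -0.13 ± 0.30 (SD). Relative to the astrocyte sum it was lower in 11 of 12 litters, at -0.37 ± 0.26, and relative to the neuron sum in 12 of 12, at -0.58 ± 0.35. The part of the oligodendrocyte transcripts in the APOD result was not tested.

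Other marker sums moved less or in the other direction. Astrocyte markers, led by GFAP, were lower in SGA in 7 of 12 litters (mean log2 difference -0.07) and microglia markers, led by C1QC, in 6 of 12 (-0.06). Neuron markers were higher in SGA in 8 of 12 litters (0.15) and hippocampal neuron markers in 11 of 12 (0.21). Of the 9 neuron markers tested, 1 was called for size, beside 0.478% of all genes. It was CAMK2A, with a log2 fold change of 0.13 (edgeR adjusted p = 0.308). Choroid plexus markers were higher in SGA in 7 of 12 litters (0.28, with an SD of 0.91), pituitary markers, led by CHGA, in 9 of 12 (0.17), and endothelial and mural markers, led by CLDN5, in 8 of 12 (0.01). Blood markers, led by HBB, were higher in 7 of 12 (0.03), and meningeal fibroblast markers, led by OGN, were lower in 7 of 12 (-0.02).

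**Figure D3:**
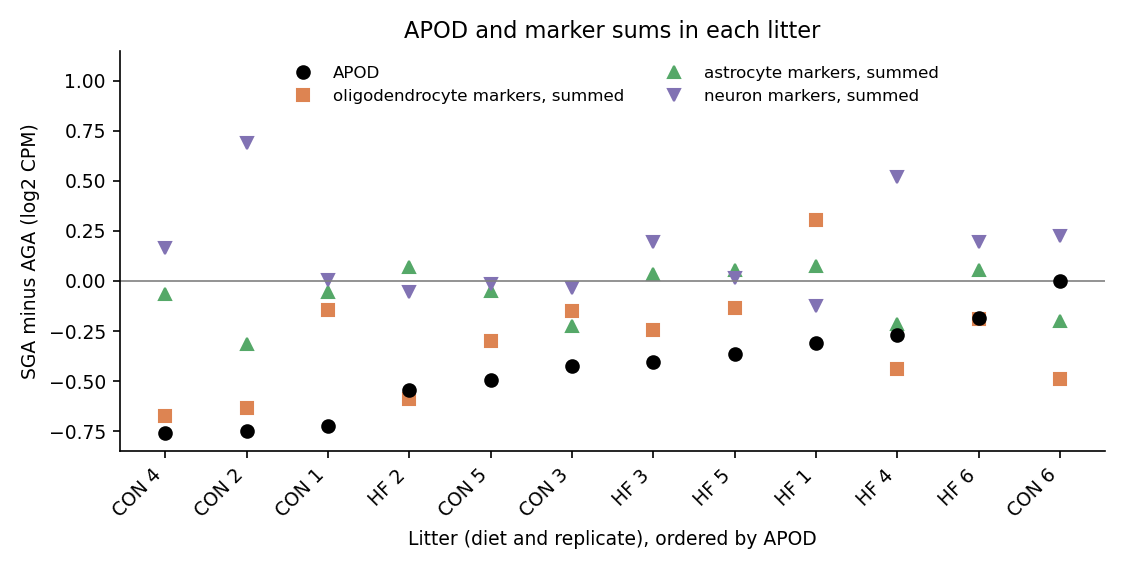
SGA minus AGA difference in log2 CPM in each of the 12 litters, ordered by APOD, for APOD (black circles) and for the summed markers of oligodendrocytes (squares), astrocytes (triangles pointing up) and neurons (triangles pointing down). APOD lies at or below 0 in all litters and the oligodendrocyte sum in 11 of 12, while the neuron sum lies above 0 in 8 of 12.

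APOD also lay higher in cohort 2 than in cohort 1, as did the oligodendrocyte and some other marker sums. It had 317 ± 79.3 CPM in cohort 1 and 472 ± 74.6 in cohort 2 (SD, n = 12 piglets each). Litter means ran from 7.96 to 8.54 log2 CPM in cohort 1 and from 8.76 to 8.99 in cohort 2 and did not overlap, as in 1.1% of all genes. For each of the other 6 genes the cohorts overlapped. The oligodendrocyte sum was 18078 ± 3261 CPM in cohort 1 and 21629 ± 3939 in cohort 2. Microglia markers went from 216 ± 72.7 to 278 ± 38.1 CPM and pituitary markers from 549 ± 76.0 to 637 ± 113, whereas choroid plexus markers went from 43.4 ± 39.7 to 20.1 ± 9.25 (SD, n = 12 piglets each). Most of the pituitary sum was CHGA, with a mean of 543 CPM beside a median sum of 573 CPM. The part of these markers in the cohort difference of APOD was not tested. By sex, APOD was 425 ± 111 CPM in females and 364 ± 103 in males (SD), and littermates were of the same sex. Cohort 1 held more male litters and cohort 2 more female litters, so the means by sex also carry the difference between cohorts.

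APOE and CLU, by contrast, did not differ by size beyond the spread between litters. APOE (gene 397576) lies on chromosome 6 from 47269973 to 47272195, plus strand, with 3 exon blocks of 1099 bases in all. Its lowest, median and highest values were 3403, 3655 and 5068 CPM in AGA CON, 3365, 3886 and 4423 in SGA CON, 3354, 3738 and 5394 in AGA HF, and 3549, 3824 and 4063 in SGA HF. The group means lay between 3811 ± 180 and 3910 ± 755 CPM (SD, n = 6), and the ranges overlapped in all 4 pairwise comparisons. APOE was higher in the SGA littermate in 6 litters and lower in 6, with a mean log2 difference of -0.02 ± 0.25 (SD, exact permutation p = 0.752). The fitted log2 fold change for size was 0.01 (SE 0.057, edgeR adjusted p = 0.987).

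CLU (gene 397025) lies on chromosome 14 from 12516644 to 12527851, minus strand, with 9 exon blocks of 1600 bases in all. The lowest, median and highest values were 5338, 6492 and 8194 CPM in AGA CON, 5251, 5609 and 7119 in SGA CON, 5059, 5773 and 7197 in AGA HF, and 5579, 5968 and 6146 in SGA HF. AGA CON had the highest mean, 6555 ± 1012 CPM, against 5885 ± 669, 5899 ± 742 and 5887 ± 210 in SGA CON, AGA HF and SGA HF (SD, n = 6), a gap smaller than its own SD. Within litters the log2 difference was -0.08 ± 0.23 (SD, exact permutation p = 0.237) and was negative in 7 of 12. In the fit it was -0.05 (SE 0.057, edgeR adjusted p = 0.908).

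The efflux transporters differed in how they varied. ABCA1 (gene 100152112) lies on chromosome 1 from 275475434 to 275507918, plus strand, with 23 exon blocks of 6133 bases in all. Lowest, median and highest values were 9.49, 12.1 and 18.0 CPM in AGA CON, 9.63, 14.1 and 17.2 in SGA CON, 9.94, 12.7 and 15.3 in AGA HF, and 8.77, 14.5 and 18.5 in SGA HF. The groups overlapped, and the within-litter log2 difference was 0.08 ± 0.47 (SD, n = 12, exact permutation p = 0.550). It did not hold its sign between cohorts, with 0.40 ± 0.31 in cohort 1 (higher in 5 of 6 litters) and -0.24 ± 0.37 in cohort 2 (higher in 2 of 6). The fitted log2 fold change for size was 0.20 (SE 0.102, edgeR adjusted p = 0.747).

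ABCG1, which passes cholesterol on to lipidated particles, was the 1 gene of the 7 whose size difference was not alike on the 2 diets at an unadjusted exact p under 0.05. ABCG1 (gene 100620416) lies on chromosome 13 from 215898408 to 215965031, plus strand, with 15 exon blocks of 8708 bases in all. On HF, AGA and SGA littermates of replicates 1 to 3 had 4.79 and 6.33, 1.28 and 3.99, and 3.10 and 3.25 CPM. Replicates 4 to 6 on HF had 2.95 and 3.86, 2.30 and 3.32, and 3.12 and 3.97 CPM. SGA was thus higher in 6 of 6 HF litters. On CON, the AGA and SGA littermates of the other 6 litters had 3.59 and 2.38, 3.28 and 3.96, and 3.52 and 3.75 CPM in replicates 1 to 3. In CON replicates 4 to 6 they had 4.88 and 3.46, 3.74 and 3.38, and 2.24 and 1.14 CPM, so SGA was higher in 2 of 6 CON litters.

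The within-litter log2 difference of ABCG1 was 0.50 ± 0.50 on HF and -0.28 ± 0.40 on CON (SD, n = 6 litters each; exact permutation p = 0.03125 and 0.1875). The effects on the 2 diets differed by 0.78 on the log2 scale with an exact permutation p of 0.00649, and 4.36% of all genes had p under 0.05 in this test. After adjustment over all genes p was 0.989. In the edgeR model the interaction was 0.40 (SE 0.360) with an adjusted p of 0.888, and with litter as a block 0.77 with an adjusted p of 0.527, beside 0.276% of genes called. The group ranges overlapped, and at 7 to 47 reads per library a few reads move each value. The widest pair, HF replicate 2, has 8 reads in the AGA piglet, and without that litter the difference between the diets was 0.58. Over both diets together the within-litter difference was 0.11 ± 0.59 (SD, n = 12, exact permutation p = 0.557).

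LRP1, a large endocytic receptor that takes up APOE particles, was decided by a single library. LRP1 (gene 100514839) lies on chromosome 5 from 24186409 to 24202094, minus strand, with 34 exon blocks of 5140 bases in all. SGA HF replicate 1 had 367 reads and 49.4 CPM, whereas the other 23 libraries had 37 to 117 reads and 6.01 to 15.2 CPM. The other SGA HF piglets, replicates 2 to 6, had 14.0, 9.11, 10.9, 8.89 and 12.6 CPM. With that library the SGA HF mean was 17.5 ± 15.8 CPM (SD, n = 6), and without it 11.1 ± 2.22 (n = 5), next to 10.9 ± 2.30 in AGA CON, 9.99 ± 2.56 in SGA CON and 9.02 ± 2.39 in AGA HF. Within litters the log2 difference was 0.25 ± 0.88 (SD, n = 12, exact permutation p = 0.398), higher in SGA in 6 litters, and its mean was 0.04 without that litter. The fitted log2 fold change for size was 0.23 (SE 0.231, edgeR adjusted p = 0.900), and without the library 0.09.

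SOAT1 (gene 100628166) lies on chromosome 9 from 132895468 to 132952031, minus strand, with 15 exon blocks of 3326 bases in all. Its lowest, median and highest values were 2.64, 4.13 and 6.19 CPM in AGA CON, 3.63, 4.84 and 5.85 in SGA CON, 3.36, 5.05 and 5.76 in AGA HF, and 3.38, 3.95 and 5.59 in SGA HF. All groups overlapped. The within-litter log2 difference was 0.03 ± 0.55 (SD, n = 12, exact permutation p = 0.850), with 7 litters higher in SGA. At 20 to 53 reads per library, a difference of the size seen for APOD was within the scatter of single litters.

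**Figure D4:**
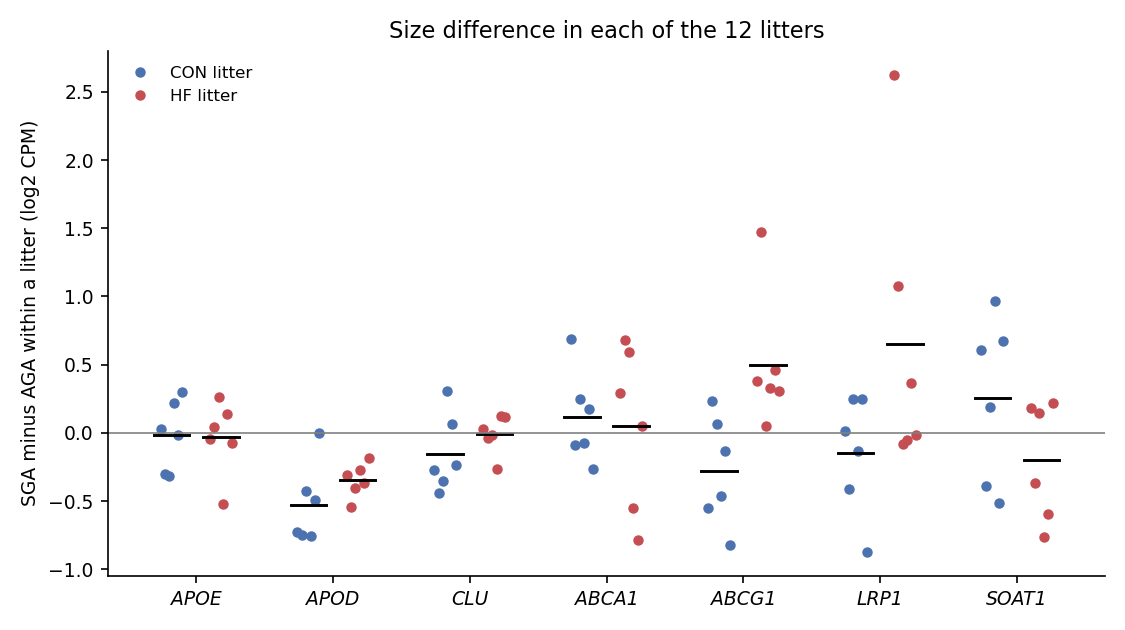
SGA minus AGA difference in log2 CPM within each of the 12 litters for the 7 genes; points are litters, colours are diets and black bars are means over 6 litters. APOD is at or below 0 in every litter, ABCG1 is above 0 in all 6 HF litters and in 2 of 6 CON litters, and the single high LRP1 point at 2.63 is HF replicate 1.

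For none of the 7 genes did the diets differ beyond the spread between litters. Formulas were given by litter, so litter means of log2 CPM were compared, 6 HF against 6 CON. The HF minus CON difference was -0.01 for APOE, 0.13 for APOD and -0.07 for CLU, with exact permutation p-values of 0.911, 0.552 and 0.342. It was 0.03 for ABCA1 (exact permutation p = 0.797), 0.08 for ABCG1 (0.766), 0.12 for LRP1 (0.639) and 0.01 for SOAT1 (0.942). The LRP1 value rests on the litter of the high library, HF replicate 1, and was -0.05 without it. None of the 7 was under 0.05, against 4.1% of all genes, and the ranges of the litter means overlapped for all 7. Within cohorts, where 3 against 3 litters cannot go below an exact p of 0.1, APOD differed by 0.09 and 0.17, and ABCA1 by -0.05 and 0.12. In the edgeR model, log2 fold changes for diet lay between -0.14 (ABCA1) and 0.13 (LRP1), with adjusted p-values from 0.853 to 0.982, and the value of LRP1 was -0.03 without SGA HF replicate 1. With counts summed over littermates, a fit that called 0.00613% of all genes, the adjusted p was 0.999 for all 7.

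**Figure D5:**
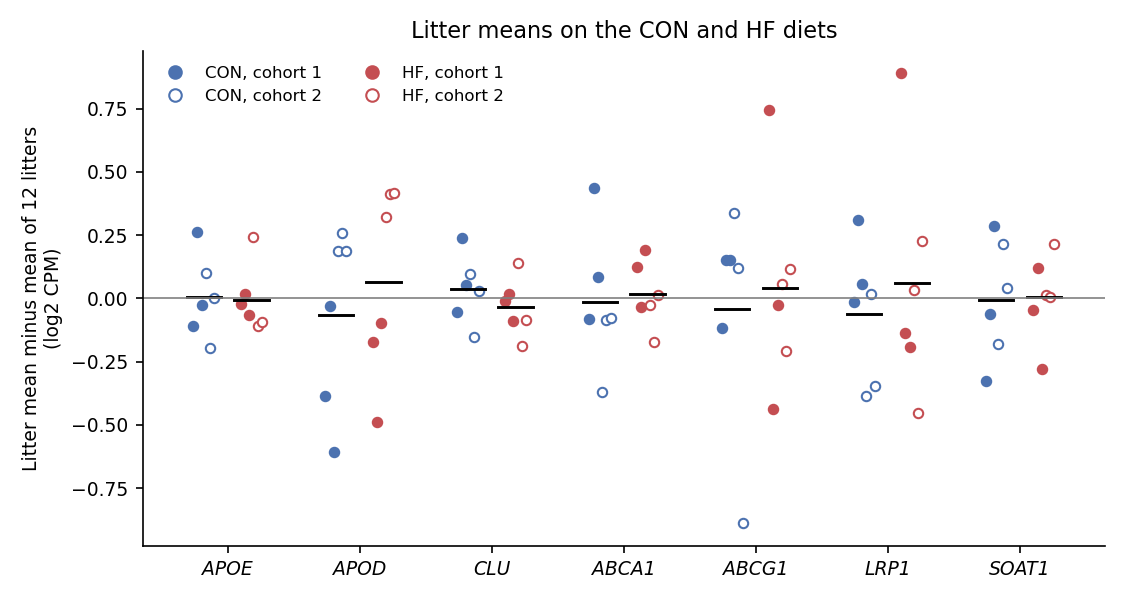
Litter means of log2 CPM, each minus the mean of the 12 litters, on CON and HF for the 7 genes; filled points are cohort 1, open points cohort 2 and black bars means over 6 litters. Points of the 2 diets overlap for all 7 genes, and for APOD the open cohort 2 points lie above the filled cohort 1 points on both diets.

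No other gene's size effect differed between the diets at an unadjusted exact p under 0.05. The difference of the within-litter values, HF minus CON, was 0.80 for LRP1 (exact permutation p = 0.0909), which was 0.41 without the litter of the single high library, -0.45 for SOAT1 (0.165), 0.15 for CLU (0.262), -0.07 for ABCA1 (0.820) and -0.02 for APOE (0.900).

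Across libraries, APOE and CLU varied together. After the mean of each group and cohort was removed, their Pearson correlation over the 24 libraries was 0.794. It is given as a description, since the libraries share litters and depth. AGA CON replicate 2 and AGA HF replicate 4 had the highest APOE and CLU of all libraries. They also had the highest astrocyte sums, 16616 and 16568 CPM, and the lowest neuron sums, 8552 and 9713 CPM. The part of these libraries in the correlation was not tested. ABCG1 and LRP1 correlated at 0.482, and APOD and ABCA1 at 0.372. APOD showed little relation to the other apolipoproteins, with 0.129 to APOE and -0.116 to CLU. By the same measure, the tested genes most alike in pattern were TM4SF18 (0.903), EFS (0.854) and CHST7 (0.842) for APOE and EML3 (0.909), SERINC2 (0.893) and PLCD3 (0.878) for CLU. For APOD they were ZNFX1 (0.806), NHLRC3 (0.776) and SCAF11 (0.771), and no oligodendrocyte marker was among these 3. The lists for the transporters were CREBZF (0.830), LACTB2 (0.824) and CCDC82 (0.805) for ABCA1 and KISS1R (0.865), FRMPD3 (0.830) and SEC16A (0.791) for ABCG1. For LRP1 they were INTS10 (0.802), SRSF3 (0.795) and PCSK6 (0.773), and for SOAT1 IGF1 (0.794), GEN1 (0.792) and C3H2orf81 (0.720).

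Around these genes, 89 other genes of lipoprotein and sterol handling were tested from 8 lists. None of the 89 was called for size, beside 0.478% of all genes, and 1, TM7SF2, for diet, beside 0.159%. The counts were the same from limma voom, which called 0.325% of all genes for size and 0.0613% for diet. They were also the same from DESeq2, which called 1.29% and 0.539%. At an unadjusted p under 0.05, 8 of 89 passed for size (2 higher and 6 lower in SGA) and 8 for diet (2 higher and 6 lower on HF), shares near those of all genes, 10.6% and 7.09%. TM7SF2, a sterol reductase of cholesterol synthesis, had 291 ± 20.9 CPM on HF and 249 ± 25.9 on CON (SD, n = 12 piglets each). Its log2 fold change for diet was 0.24 (SE 0.058, edgeR adjusted p = 0.371). Over litter means the difference was 0.23 with an exact permutation p of 0.00216, the smallest that 6 against 6 litters allow. In that exact test 4.1% of all genes had p under 0.05, and 0 genes were under 0.4 after Benjamini-Hochberg adjustment. The call was lost with counts summed over littermates (adjusted p = 0.999) and without SGA HF replicate 4 (adjusted p = 0.552). It was also lost when the litter of CON replicate 1 or of HF replicate 1, 2, 4 or 5 was left out, with log2 fold changes from 0.18 to 0.24. The other 14 synthesis genes tested were not called, and of all 15, 7 were positive and 8 negative for diet, with a median of -0.004 beside 0.002 for all genes.

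For size, 12 of the 15 synthesis genes had negative values, with a median of -0.05 beside -0.002 for all genes, and none was called. With litter as a block 13 of 15 were negative and 3 were called lower in SGA: MSMO1 (-0.24, adjusted p = 0.230) and SC5D (-0.17, adjusted p = 0.342), which modify the sterol nucleus, and ACAT2 (-0.17, adjusted p = 0.398), a thiolase at the start of the pathway. The block fit called 6 of the 89 genes in all, each lower in SGA, beside 1.52% of all genes called lower. INSIG1 (-0.24, adjusted p = 0.216), a sterol sensor of the endoplasmic reticulum, and APOM were also among them. The most abundant synthesis gene per length was FDPS at 251 CPM per kb, and ACAT2 had the smallest p of the list for size in the model with surrogate variables (-0.09, adjusted p = 0.844).

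Among other apolipoproteins, 3 of 15 listed genes were tested. APOM, a small lipocalin of high-density lipoproteins, was lower in SGA in 12 of 12 litters, as APOD was, at 2.32 ± 0.671 CPM in AGA and 1.36 ± 0.577 in SGA (SD, n = 12) and as low as 0.487 CPM in a single library. Its mean within-litter log2 difference was -0.70 (exact permutation p = 0.000488), its fitted value -0.58 (SE 0.191, edgeR adjusted p = 0.555), and with the block -0.78 (adjusted p = 0.270). APOA1 was the most abundant of the list at 315 CPM per kb and had a log2 fold change of -0.12 for diet (adjusted p = 0.719).

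The remaining lists had no call in either contrast of the model with surrogate variables. Of 20 other lipoprotein receptors, 12 had positive values for size and 16 negative values for diet, with medians of 0.03 and -0.03. SCARB1, a receptor of high-density lipoproteins, had the smallest p of that list in both contrasts, at 0.12 for size (adjusted p = 0.652) and -0.11 for diet (adjusted p = 0.667), and LRPAP1, a chaperone of the receptors, was the most abundant at 206 CPM per kb. Of 6 other transporters, 3 were positive for size and 4 for diet. ABCA5 led both, with -0.25 for size (adjusted p = 0.713) and 0.22 for diet (adjusted p = 0.762), and ABCG4, a close relative of ABCG1 in neurons and glia, was the most abundant at 22.4 CPM per kb. Of 8 genes of lipolysis and particle remodelling, 3 were positive for size and 4 for diet. PLTP, which transfers phospholipid between particles, was the most abundant at 77.4 CPM per kb and had 0.32 for diet (adjusted p = 0.678), and LMF1, a maturation factor of lipases, had -0.13 for size (adjusted p = 0.676).

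Of 16 genes of intracellular sterol transport, 5 were positive for size and 9 for diet, and the sterol carrier NPC2 of the lysosome had -0.13 for size (adjusted p = 0.764), TSPO of mitochondria 0.33 for diet (adjusted p = 0.813), and GRAMD1A the highest level at 81.3 CPM per kb. Of 7 esterification and oxysterol enzymes, 3 were positive for size and 5 for diet. Of 14 sterol-sensing regulators, 7 were positive for size and 4 for diet. The transcription factor SREBF2, which drives cholesterol synthesis genes, was the most abundant at 176 CPM per kb, the nuclear receptor PPARD had 0.13 for size (adjusted p = 0.528), and the oxysterol receptor NR1H2, an activator of ABCA1, ABCG1 and APOE, had -0.07 for diet (adjusted p = 0.819).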

How the data were processed

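The labels gave 24 hippocampal libraries in 4 groups of 6, with litter from the shared diet and replicate number. The authors prepared stranded polyA libraries, trimmed reads with Trimmomatic 0.33, aligned them with STAR 2.5.2a to Sscrofa10.2 and deposited raw counts per gene from featureCounts (Subread 1.5.0), counted by strand over exons; replicates were not pooled. An entry without a gene identifier (0.613 to 1.62% of reads) was left out. Symbols came from an NCBI name table (23036 of 38882 identifiers matched).

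Genes had to reach 1 CPM in 3 or more libraries, which kept 16326. Counts were normalized by TMM and tested in R 4.3.3 with edgeR 4.0.16 (quasi-likelihood test; 4 groups, sex and 5 surrogate variables from sva 3.50.0), with Benjamini-Hochberg adjustment over 7 contrasts together; the study used limma voom, here an alternative (limma 3.58.1), as was DESeq2 1.42.0. For litters, log2 CPM with a prior count of 2 was used in exact permutation tests (numpy 2.4.6). They ran over 4096 sign patterns for size and 924 splits for diet and for the interaction. Each had 7 tests for the named genes, with adjustment over all genes. The fit with litter as a block was adjusted over its own 4 contrasts together, and the fit on counts summed over littermates over its diet contrast alone. Libraries correlated at 0.952 to 0.982 and 0 pairs were identical. Littermates deviated together (mean correlation 0.154 over 12 pairs, from 0.0144 to 0.329), and the labels name the pairs. The procedures were also run on simulated data, but the outcome is not given here and no result rests on it. Counting error is given without molecular identifiers, so it covers counting only.

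The genes and lists were chosen with earlier results of these data known. Genes named from the other lists were those called in any contrast and, per list, the gene with the highest CPM per kb and those with the smallest p for size and for diet; genes called in the block fit, and those sharing the pattern of APOD, were added after their values were seen. The genes most alike were the 3 with a symbol and the highest correlation. Values of some single genes of these lists are not reported here.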

Additional observations from a re-analysis of the deposited data

Results flagged for a closer look

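Of 28 sets of 6 values (7 genes in 4 groups), 3 held a value far from the other 5, and chance alone gives about 1 in 20. SGA HF replicate 1 had 49.4 CPM of LRP1, and the same library had the highest ABCG1 of its group at 6.33 CPM. AGA HF replicate 4 had 5394 CPM of APOE, against 3354 to 3844 CPM in the rest of its group. That library also had the highest astrocyte and microglia sums of its group, 16568 and 350 CPM. Its neuron sum, 9713 CPM, was the lowest of the group. The part of these markers in the APOE value was not tested. The size effect on ABCG1 differed between the diets by 0.78 on the log2 scale (exact permutation p = 0.00649, adjusted 0.989), positive in 6 of 6 HF litters and in 2 of 6 CON litters. It stayed between 0.58 and 0.88 when any 1 litter was left out, with exact permutation p-values from 0.00433 to 0.0173.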

How the results depend on the processing

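Of the 7 genes, 0 were called for size, but 1 (APOD) with the replicate block (beside 2.57% of all genes called), with sex and cohort in place of surrogate variables (0.649%), and with adjustment within each contrast (7.35%). For size on CON the number went from 0 to 1 with the block (1.26%) and with sex and cohort (0.263%), and for size on HF from 0 to 1 with the block (0.888%). With 1 litter left out, 0 to 1 were called for size (APOD without the litter of HF replicate 2 or 3 or CON replicate 2 or 6), for size on CON (APOD without CON 2, CON 6 or HF 3, CLU at -0.25 without CON 4, a fit that called 0.949% of all genes) and, with the block, for size on HF (0 without HF 2, 4 or 5). APOD for size ran from -0.40 to -0.27 with a litter left out (FDR p 0.142 to 0.671), from -0.49 to -0.41 in the block fit likewise (FDR p 0.00202 to 0.112, 2 of 12 under 0.05), and from -0.54 to -0.31 in 13 other settings (FDR p 0.0366 to 0.973). The exact interaction test passed 1 gene, and 1 to 2 with a litter left out (LRP1 without HF 3 or 4, CLU without CON 4, APOD without CON 6). Of the 89 other genes, 0 were called for size, 6 with the block, 1 with sex and cohort, 5 with adjustment within contrasts (all genes as above), and 0 to 11 with a litter left out. For diet 1 was called, 0 with counts summed over littermates, with sex only, with adjustment within contrasts, in cohort 1 alone, in cohort 2 alone, without SGA HF replicate 4 and at the 0.05 threshold, and 0 to 6 with a litter left out (0.0429% to 4.68% of all genes). The cause of these shifts was not tested. No called value changed direction, and 237 uncalled single-gene values of 1917 did. The block changed no other call among the 7 genes. The exact tests of size and diet kept their counts of 1 and 0. Leaving out a single library, leaving out litters in the block fit and in the interaction test, and the alternatives for the 89 genes were chosen after seeing the data. Cohorts alone could not give an exact test of diet or interaction below 0.1. For ABCG1 and SOAT1, low counts limit what could be seen.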
